A study of Mus musculus with 23 samples.

Results

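The 32 genes described here are those of cholesterol synthesis and of its control by SREBP2, taken by their symbols from a table of 48897 genes. All 32 were found, on 1 line each, and all 32 passed the filter on low counts in each comparison. They were followed in 23 poly(A) RNA-seq libraries of male BALB/c mice aged 4 to 6 weeks at the start. The control livers came from 5 sham-operated mice, in which medium without cells was injected at the cecum. The pre-metastatic livers and the primary tumors came from the same 9 mice, 3 weeks after the serosa of the cecum had been injected with CT26, a colon carcinoma line of mouse origin. The labels name no engineered allele, the tumors all came from 1 cell line, and each library came from 1 mouse. RPKM, the read count divided by gene length and by the library's total count, is the level given throughout. In bulk tissue, fewer cells of a type and less RNA per cell cannot be told apart.

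Cells make cholesterol from acetyl-CoA through mevalonate, squalene and lanosterol, and the liver is a main site of this synthesis. The transcription factor SREBP2 is held in the endoplasmic reticulum by its escort SCAP and by the INSIG proteins while sterols are plentiful. When sterols fall, SCAP carries SREBP2 to the Golgi, where the proteases of Mbtps1 and Mbtps2 release its active part, which then switches on the genes of the pathway, Srebf2 and Insig1 among them. The 32 genes were sorted by role into 6 control genes, 9 genes of the mevalonate steps up to squalene, 11 genes of the sterol steps from squalene to cholesterol, and 6 genes of cholesterol handling.

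The proximal promoters of 6 of these genes are shown because the comparisons turn on them: 3 synthesis genes that rose steeply in the pre-metastatic liver, and Srebf2, Insig1 and Insig2, which set the pathway's feedback. Each is the 250 bases before the RefSeq transcription start in GRCm38.p6, the assembly called mm10, written in the direction of transcription. Capitals mark matches, on either strand, to TCACNCCAC (a form of the sterol regulatory element bound by SREBP2), to CCAAT (the box bound by NF-Y, a partner of SREBP2) and to CACGTG (an E-box). The windows were chr13:119690101-119690350 (plus strand) for Hmgcs1, chr13:8885356-8885605 (plus) for Idi1, chr8:64733579-64733828 (minus) for Msmo1, chr15:82147019-82147268 (plus) for Srebf2, chr5:28071162-28071411 (plus) for Insig1 and chr1:121332590-121332839 (minus) for Insig2.
Hmgcs1: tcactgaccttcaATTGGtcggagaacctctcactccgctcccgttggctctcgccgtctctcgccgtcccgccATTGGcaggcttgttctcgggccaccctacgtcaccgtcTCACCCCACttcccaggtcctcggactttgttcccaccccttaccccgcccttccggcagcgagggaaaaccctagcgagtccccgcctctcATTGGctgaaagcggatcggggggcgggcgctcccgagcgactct
Idi1: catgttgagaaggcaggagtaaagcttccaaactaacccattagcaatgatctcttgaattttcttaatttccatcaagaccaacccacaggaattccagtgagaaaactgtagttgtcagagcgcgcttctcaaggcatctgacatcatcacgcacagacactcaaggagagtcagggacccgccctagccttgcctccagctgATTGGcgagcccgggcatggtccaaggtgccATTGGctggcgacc
Msmo1: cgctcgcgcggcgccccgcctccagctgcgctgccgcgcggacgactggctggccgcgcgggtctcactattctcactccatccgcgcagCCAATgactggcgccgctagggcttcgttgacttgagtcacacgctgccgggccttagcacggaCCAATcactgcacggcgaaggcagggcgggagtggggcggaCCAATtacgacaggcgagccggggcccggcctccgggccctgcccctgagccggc
Srebf2: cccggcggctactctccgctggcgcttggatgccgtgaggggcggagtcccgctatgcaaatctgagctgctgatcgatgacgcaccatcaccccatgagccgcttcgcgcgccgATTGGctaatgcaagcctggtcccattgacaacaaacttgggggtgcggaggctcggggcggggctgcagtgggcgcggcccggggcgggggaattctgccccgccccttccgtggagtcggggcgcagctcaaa
Insig1: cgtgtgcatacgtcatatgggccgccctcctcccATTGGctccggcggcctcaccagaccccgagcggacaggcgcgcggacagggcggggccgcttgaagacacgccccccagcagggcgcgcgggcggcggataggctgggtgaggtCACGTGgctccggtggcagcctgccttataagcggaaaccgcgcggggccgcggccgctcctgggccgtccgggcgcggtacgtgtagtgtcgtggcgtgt
Insig2: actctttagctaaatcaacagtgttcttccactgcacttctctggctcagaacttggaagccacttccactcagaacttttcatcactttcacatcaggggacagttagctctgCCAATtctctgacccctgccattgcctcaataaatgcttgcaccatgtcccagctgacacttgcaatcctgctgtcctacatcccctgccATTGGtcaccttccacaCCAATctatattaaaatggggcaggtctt

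Windows were found for 26 of the 32 genes, with 33 starts between them, and none was found for Fdps, Fdft1, Sqle, Stard4, Npc1 and Soat2. The sterol regulatory element form was in 1 of the 33 windows, that of Hmgcs1, and in 1.05% of all 32851 windows. The CCAAT box was in 20 of the 33 windows, or 60.6%, against 33.8% of all windows. The E-box was in 6 of the 33 windows, or 18.2%, against 6.02% of all windows. The windows of these genes were also richer in G and C, with a median of 61.6% against 52.4%. Insig2 has 3 annotated starts, of which the outermost is printed: it holds 3 CCAAT boxes, and neither of the others holds a match to any of the 3 motifs. These matches describe letters only.

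Total counts were 51064615 to 60393702 in control liver, 44587556 to 79773163 in pre-metastatic liver and 47005276 to 70884436 in the primary tumor. The 32 genes took 0.175% to 0.205% of the counts of a control liver, 0.286% to 0.554% of a pre-metastatic liver and 0.145% to 0.25% of a tumor. The tissue labels were checked on marker genes. The summed RPKM of 8 hepatocyte markers was 48370 to 57965 in control liver, 33167 to 66888 in pre-metastatic liver and 6.46 to 272 in the tumors. The tumors of M10 and M12 were the highest, at 146 and 272, and the other tumors reached at most 30.4. In the tumors the epithelial markers Epcam, at 0.0168 to 1.88 RPKM, and Cldn4, at 0 to 0.188 RPKM, were near absent, and Krt20 stood at 27.8 to 113 RPKM. The labels give no batch, but the livers split by 6 circadian clock genes into an early phase (4 control and 5 pre-metastatic livers) and a late phase (the control C7 with the pre-metastatic M1, M2, M10 and M12). The place of C7, the only late control, was not clear-cut. Its clock index was 0.981, against -0.102 for M7, the highest early liver, and 2.05 for M12, the lowest late pre-metastatic liver. The gap from C7 to M12 was nearly as large as the gap from M7 to C7, at which the livers were split. These phases are sets of samples, not conditions, and the comparison of livers was repeated within the early phase.

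The comparison of pre-metastatic with control livers asked what an orthotopic tumor elsewhere in the body is accompanied by in a liver that holds no metastasis yet. Here 23 of the 32 genes rose, 1 fell and 8 did not pass the test. Among all 16987 genes tested, 17.7% rose and 13.3% fell (edgeR quasi-likelihood test, Benjamini-Hochberg adjusted p under 0.05). With library totals in place of TMM, the same 32 genes again gave 23 and 1, while over all genes the split turned from 3009 higher and 2261 lower to 2377 higher and 2796 lower. The median log2 fold change of the 32 genes was 1.68, against 0.01 for all genes. By role the medians were 2.16 for the sterol steps (10 of 11 rose), 1.92 for the mevalonate steps (8 of 9 rose), 0.25 for the control genes (3 of 6 rose, 1 fell) and 0.35 for cholesterol handling (2 of 6 rose). Most of these changes left no overlap: the RPKM of 20 genes was higher in every pre-metastatic liver than in any control liver, and of 0 genes lower, where 4.85% and 6.09% of all genes did so.

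**Figure D1:**
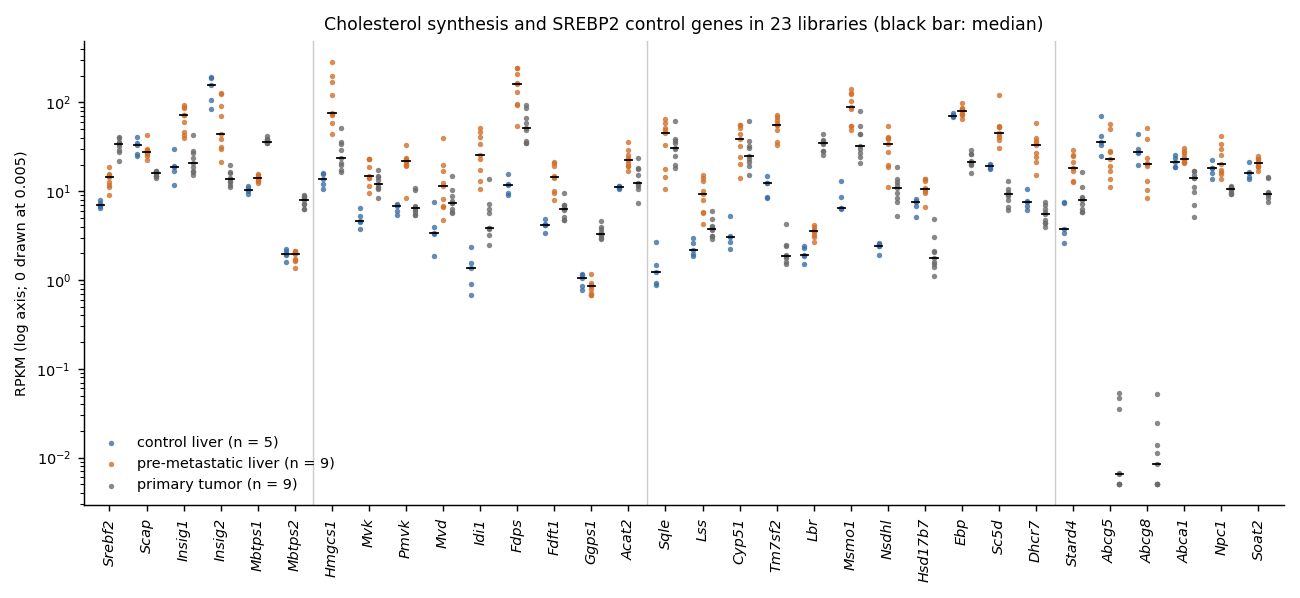
RPKM on a log axis of the 32 genes (x axis, grouped by role between the grey lines) in the 5 control livers, 9 pre-metastatic livers and 9 primary tumors, each point 1 library and each black bar a group median, with 0 drawn at 0.005. Sqle sits at 0.873 to 2.66 in the control livers and at 10.7 to 65.8 in the pre-metastatic livers, while Abcg5 and Abcg8 are at or near 0 in the tumors.

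Among the control genes, Srebf2 (chr15:82147269-82205379), which encodes SREBP2 itself, was at 6.44, 7.42, 7.97, 6.94 and 6.79 RPKM in the control livers of C1, C4, C5, C6 and C7. In the 9 pre-metastatic livers it ranged from 9.10 to 18.6 RPKM, with a median of 14.6. Every pre-metastatic liver was thus above every control liver, by 2.07-fold in the fit (log2 1.05 ± 0.17 SE, edgeR adjusted p = 0.000449). Mir33, a microRNA within Srebf2, is counted separately in the table and had a median count of 0 in each group. Poly(A) libraries do not capture mature microRNA, so this count does not give its level. Scap, the sterol-sensing escort, did not pass the test: it stood at 40.8, 35.1, 33.5, 26.3 and 25.1 RPKM in the control livers and at 22.2 to 42.8 RPKM (median 27.8) in the pre-metastatic livers (log2 -0.09 ± 0.15 SE, edgeR adjusted p = 0.708). Of the proteases, Mbtps1, which makes the first cut in SREBP2, was at 10.2, 10.4, 9.42, 10.8 and 11.6 RPKM in the control livers and rose to 12.5 to 15.8 RPKM (median 14.1; log2 0.50 ± 0.07 SE, edgeR adjusted p = 0.000184). Mbtps2, which makes the following cut within the membrane, overlapped fully at 1.59 to 2.25 and 1.35 to 2.12 RPKM and did not pass the test.

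The INSIG genes went opposite ways. Insig1 (chr5:28071412-28078662), an SREBP target whose product retains SCAP, was at 11.8, 18.7, 19.4, 29.8 and 16.9 RPKM in the control livers. Its pre-metastatic values ran from 39.7 to 92.8 RPKM with a median of 72.0, all above the controls (log2 1.89 ± 0.26 SE, edgeR adjusted p = 0.000141). Insig2 (chr1:121304353-121332589), the INSIG that predominates in normal liver, was at 188, 196, 83.8, 156 and 106 RPKM in the control livers. In the pre-metastatic livers it ranged from 21.4 to 128 RPKM with a median of 44.7 (log2 -1.14 ± 0.38 SE, edgeR adjusted p = 0.0339). The groups overlapped for Insig2, since the livers of M4, M5 and M8 lay within the control range at 126, 128 and 92.2 RPKM. The level of Insig2 differed between the clock phases: the 4 late-phase pre-metastatic livers were at 21.4 to 38.9 RPKM and the 5 early-phase ones at 44.7 to 128 RPKM. Within the early phase the fall of Insig2 was no longer past the threshold (log2 -0.74, edgeR adjusted p = 0.0902), and it was also lost without C1, C4, C6, M1, M2, M6 or M12. With the clock phase as a term in the fit of all 14 livers, Insig2 was lower by nearly as much as without the term (log2 -1.01, edgeR adjusted p = 0.00669).

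The balance of both genes within a library does not depend on how libraries are scaled. Insig1 RPKM divided by Insig2 RPKM was 0.0626 to 0.232 in the control livers, 0.316 to 2.84 in the pre-metastatic livers and 0.950 to 3.10 in the tumors. Insig1 exceeded Insig2 in 0 of 5 control livers, in 7 of 9 pre-metastatic livers and in 8 of 9 tumors. The exceptions in the pre-metastatic group were M4 and M5, with ratios of 0.316 and 0.334, and 3 further livers (M6, M7 and M8) stood close to equality at 1.05, 1.02 and 1.01. These were the early-phase pre-metastatic livers, and the late-phase ones (M1, M2, M10 and M12) were at 2.29 to 2.84. The late-phase control C7 was at 0.160.

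**Figure D2:**
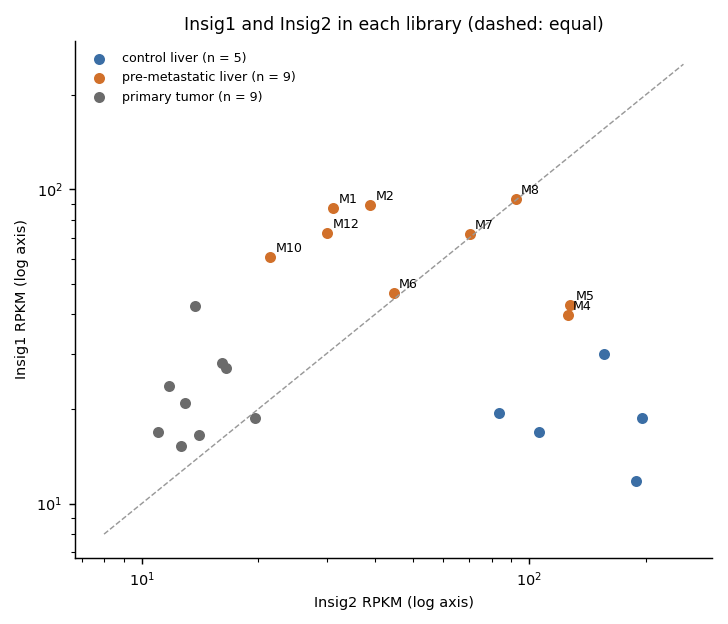
Insig1 against Insig2, both as RPKM on log axes, with 1 point for each of the 23 libraries, pre-metastatic livers named by mouse and equality as a dashed line. The control livers lie below the line at ratios of 0.0626 to 0.232, 7 of the 9 pre-metastatic livers lie above it, and the tumors lie at low Insig2 (11.0 to 19.7 RPKM).

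Of the mevalonate steps, Hmgcs1 (chr13:119690351-119708260), the cytosolic HMG-CoA synthase, was at 10.6, 16.1, 12, 15.8 and 13.9 RPKM in the control livers. It ranged from 43.6 to 287 RPKM in the pre-metastatic livers, with a median of 76.9 (log2 3.27 ± 0.46 SE, edgeR adjusted p = 0.000155). The lowest of these livers, M2, was thus still above the highest control, and the highest, M8, was 6.57 times the lowest. Idi1 (chr13:8885606-8892396), the isomerase that makes the reactive isoprene unit, was at 0.681, 1.55, 0.912, 2.37 and 1.36 RPKM in the control livers and at 10.5 to 51.4 RPKM (median 25.3) in the pre-metastatic livers. That was a 23.2-fold rise (log2 4.53 ± 0.49 SE, edgeR adjusted p = 3.26e-05). Fdps, which joins isoprene units into farnesyl diphosphate, was at 9.01, 11.7, 12.1, 15.8 and 9.51 RPKM against 54.3 to 247 RPKM (median 161), a 14.5-fold rise (log2 3.86 ± 0.39 SE). The table also lists pseudogene copies of Fdps, of which Gm3571 was the most counted, with a median of 41 counts in pre-metastatic liver against 13682 for Fdps.

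Smaller rises were seen at the other mevalonate steps. Acat2, the cytosolic acetyl-CoA acetyltransferase at the head of the pathway, was at 10.6, 11.0, 11.1, 11.6 and 11.4 RPKM in the control livers and at 17.1 to 35.9 RPKM (median 22.3) in the pre-metastatic livers (log2 1.18 ± 0.17 SE). Acat2 is uncertain in level, since the table also holds Acat3, a close copy, with a median count of 10544 in control and 10602 in pre-metastatic liver, where Acat2 had 1299 and 2829. The kinases Mvk and Pmvk, which phosphorylate mevalonate in succession, did not overlap between the groups. Mvk was at 4.46, 5.27, 4.65, 3.77 and 6.52 RPKM in the control livers against 9.55 to 23.3 RPKM (median 15.0; log2 1.88 ± 0.24 SE). Pmvk was at 7.15, 6.74, 7.09, 6.04 and 5.42 RPKM against 8.31 to 33.1 RPKM (median 22.0; log2 1.81 ± 0.25 SE). The next enzyme, the decarboxylase of Mvd, rose as well, with overlap. Mvd was at 3.99, 3.41, 3.30, 7.49 and 1.88 RPKM in the control livers and at 4.79 to 39.6 RPKM (median 11.5) in the pre-metastatic livers (log2 1.93 ± 0.52 SE, edgeR adjusted p = 0.0107). Fdft1, the squalene synthase, was at 4.16, 3.41, 4.31, 4.17 and 4.90 RPKM against 7.88 to 21.2 RPKM (median 14.6; log2 1.92 ± 0.26 SE). Its gene overlaps the heavily counted Ctsb by 774 bases on the opposite strand, so that its reads may not be fully told apart. The branch enzyme Ggps1, which makes geranylgeranyl diphosphate for protein prenylation and no sterol, was the only mevalonate gene that did not pass the test, at 0.769 to 1.16 RPKM in control and 0.679 to 1.16 RPKM in pre-metastatic liver (edgeR adjusted p = 0.303).

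Of the sterol steps, Sqle (chr15:59315092-59331193), the squalene epoxidase, showed the largest rise of the 32 genes. It was at 0.934, 1.49, 0.873, 2.66 and 1.22 RPKM in the control livers of C1, C4, C5, C6 and C7. The pre-metastatic livers had 10.7 RPKM at the lowest (M2), a median of 45.1 and 65.8 RPKM at the highest (M1), all above the controls. The rise was 29.4-fold (log2 4.88 ± 0.56 SE, edgeR adjusted p = 4.63e-05) and ranked 41 from the top among the 16987 genes. Lss, the lanosterol synthase that closes the ring system, was at 1.87, 2.18, 1.99, 2.96 and 2.63 RPKM against 4.27 to 15.2 RPKM (median 9.43; log2 2.14 ± 0.32 SE). The following enzymes act on the methyl groups of lanosterol, and their genes rose steeply. Cyp51, the lanosterol demethylase, was at 2.71, 3.14, 2.23, 5.21 and 3.09 RPKM in the control livers and at 13.9 to 55.8 RPKM (median 38.4) in the pre-metastatic livers (log2 3.63 ± 0.39 SE). Msmo1, the sterol methyl oxidase, was at 6.50, 8.61, 6.38, 13.0 and 6.43 RPKM against 48.9 to 141 RPKM (median 88.3; log2 3.60 ± 0.35 SE). Nsdhl, which removes the oxidized carbon, was at 1.93, 2.44, 2.61, 2.57 and 2.43 RPKM against 11.2 to 54.4 RPKM (median 34.1; log2 3.84 ± 0.37 SE). Hsd17b7, the ketosteroid reductase of the same complex, rose by less and overlapped between groups, at 5.18, 7.47, 6.86, 7.77 and 8.27 RPKM against 6.72 to 13.9 RPKM (median 10.7; log2 0.74 ± 0.17 SE, edgeR adjusted p = 0.00383).

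The reductases and the last sterol enzymes completed the group. Tm7sf2, a sterol C14 reductase, was at 12.5, 8.54, 14.7, 12.5 and 8.48 RPKM in the control livers and at 33.3 to 72.6 RPKM (median 55.8) in the pre-metastatic livers (log2 2.36 ± 0.24 SE, edgeR adjusted p = 2.51e-05). Lbr, the lamin B receptor, has the same enzymatic activity and is far less abundant in liver: it was at 1.53, 2.29, 1.88, 2.43 and 1.90 RPKM against 2.72 to 4.13 RPKM (median 3.52; log2 0.87 ± 0.12 SE). Sc5d, the lathosterol oxidase, was at 17.9, 18.3, 19.2, 19.8 and 20.1 RPKM in control liver and at 30.9 to 123 RPKM (median 45.2) in pre-metastatic liver (log2 1.56 ± 0.26 SE). Dhcr7, which makes cholesterol from its direct precursor, was at 10.5, 7.51, 6.78, 7.79 and 6.10 RPKM against 15.4 to 58.7 RPKM (median 33.1; log2 2.16 ± 0.30 SE). For these 4 genes every pre-metastatic liver was above every control liver. Ebp, the sterol isomerase, was already abundant in control liver at 69.4 to 75.6 RPKM and stood at 64.4 to 99.9 RPKM in pre-metastatic liver, short of the threshold (log2 0.25 ± 0.11 SE, edgeR adjusted p = 0.0912).

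**Figure D3:**
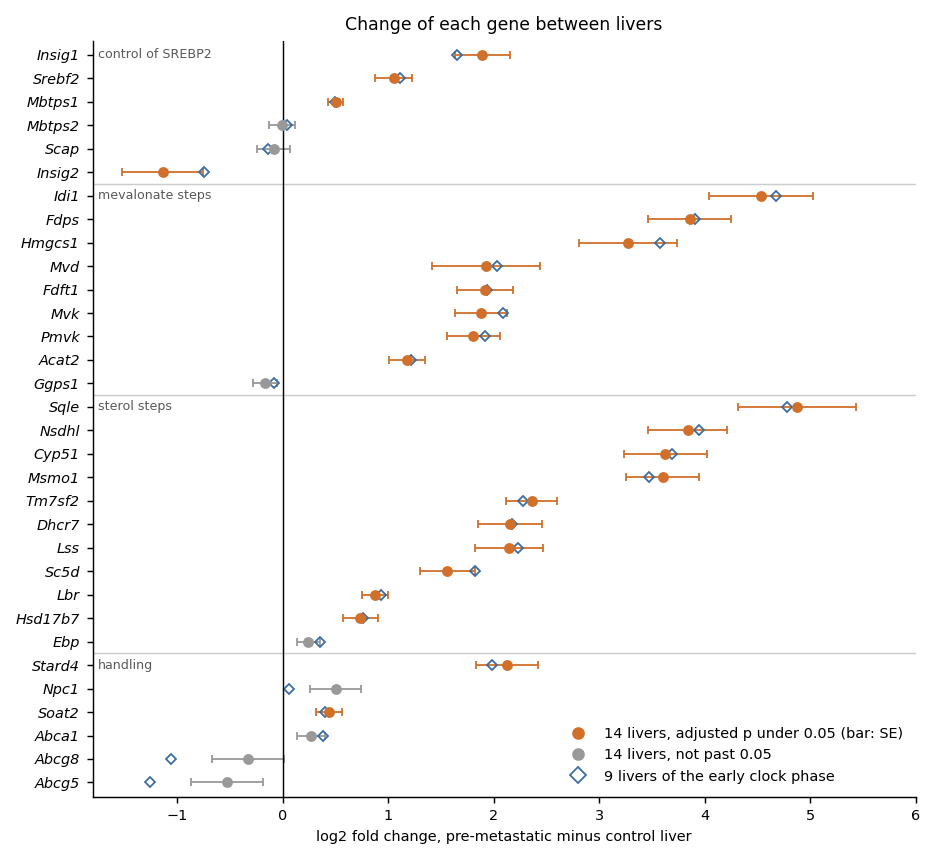
Log2 fold change of pre-metastatic against control liver for each gene (filled circles, bars 1 SE, orange where the edgeR adjusted p was under 0.05 and grey otherwise), grouped by role, with the value from the 9 early-phase livers as open diamonds. The sterol and mevalonate genes except Ggps1 and Ebp lie to the right at 0.74 to 4.88, and Insig2, Abcg5 and Abcg8 lie farthest to the left.

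Genes of cholesterol handling mostly did not follow. Stard4, an SREBP-regulated carrier that moves sterol between membranes, rose from 2.58, 3.77, 3.34, 7.41 and 7.56 RPKM in the control livers to 12.7 to 29.3 RPKM (median 18.5) in the pre-metastatic livers (log2 2.13 ± 0.29 SE, edgeR adjusted p = 0.000136). Soat2, which esterifies cholesterol in hepatocytes, was at 13.7, 14.3, 16.2, 16.5 and 21.2 RPKM against 16.9 to 24.9 RPKM (median 21.0), a small and overlapping rise (log2 0.44 ± 0.12 SE, edgeR adjusted p = 0.0119) that a rank-sum test on RPKM did not call. Abca1, the exporter of cholesterol to apolipoprotein particles, was at 18.7, 21.1, 18.7, 25.6 and 23.9 RPKM against 20.5 to 30.7 RPKM (median 23.1) and did not pass the test (log2 0.27 ± 0.13 SE, edgeR adjusted p = 0.135). Npc1, which releases cholesterol from lysosomes, did not pass either, at 13.7 to 22.2 and 13.7 to 42.3 RPKM.

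Abcg5 and Abcg8, whose products pair to secrete cholesterol into bile, lie head to head and overlap by 6710 bases on opposite strands. Abcg5 was at 25.0 to 69.7 RPKM in control and 11.2 to 57.7 RPKM in pre-metastatic liver, and Abcg8 at 19.7 to 44.1 and 8.37 to 51.6 RPKM. Neither passed the test over all livers (log2 -0.53 ± 0.34 SE and -0.32 ± 0.34 SE, edgeR adjusted p = 0.262 and 0.505). Within the early phase, which leaves out the control C7, both were lower in every pre-metastatic liver than in any control liver. C7 had the lowest control values, 25.0 and 19.7 RPKM. These lay within the early pre-metastatic ranges, which reached 27.8 and 23.4 RPKM. The share of all genes that separate in this way, among 5 pre-metastatic and 4 control livers, was not counted. In the early-phase fit Abcg5 fell by 1.25 (edgeR adjusted p = 0.00509) and Abcg8 by 1.06 (edgeR adjusted p = 0.0131) on the log2 scale. Among the 9 pre-metastatic livers both were highest in M2, whose synthesis genes were among the lowest.

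Within the early phase 24 of the 32 genes rose and 2 fell, where 14.7% and 10.9% of the 16158 genes tested did. The added rise was Ebp (log2 0.35, edgeR adjusted p = 0.0366), and the falls were Abcg5 and Abcg8 in place of Insig2. Steep rises changed little: Sqle was at log2 4.78, Idi1 at 4.68, Fdps at 3.91, Hmgcs1 at 3.57 and Srebf2 at 1.11. Between the late-phase and the early-phase pre-metastatic livers, 3 genes did not overlap with the late livers higher (Stard4, Npc1 and Soat2) and 2 with the late livers lower (Insig2 and Ebp). Among all genes these shares were 2.5% and 2.72%. Npc1 was at 25.4 to 42.3 RPKM in the late and at 13.7 to 20.3 RPKM in the early pre-metastatic livers.

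In summed RPKM the pre-metastatic livers spread more widely than the control livers, at a higher level and over more mice. The sum over the 9 mevalonate genes was 51.6 to 68.2 in the control livers and 161 to 717 in the pre-metastatic livers, and over the 11 sterol genes 132 to 147 and 280 to 678. Over the 23 genes that rose, the liver of M8 was the highest of the 9 for 14 genes and that of M1 for 5 genes. The liver of M2 was the lowest for 11 genes and that of M4 for 7 genes. M2 was a late-phase and M4 an early-phase liver, and M8 and M1 likewise stood in different phases. The coefficient of variation among pre-metastatic livers ran from 7.73% for Mbtps1 to 76.8% for Mvd. Among control livers it ran from 3.35% for Acat2 to 52.2% for Mvd. For single genes the contrast differed: control and pre-metastatic values were 17.3% and 66.1% for Hmgcs1, but 47.6% and 50.9% for Idi1 and 50.7% and 52.5% for Sqle.

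**Figure D4:**
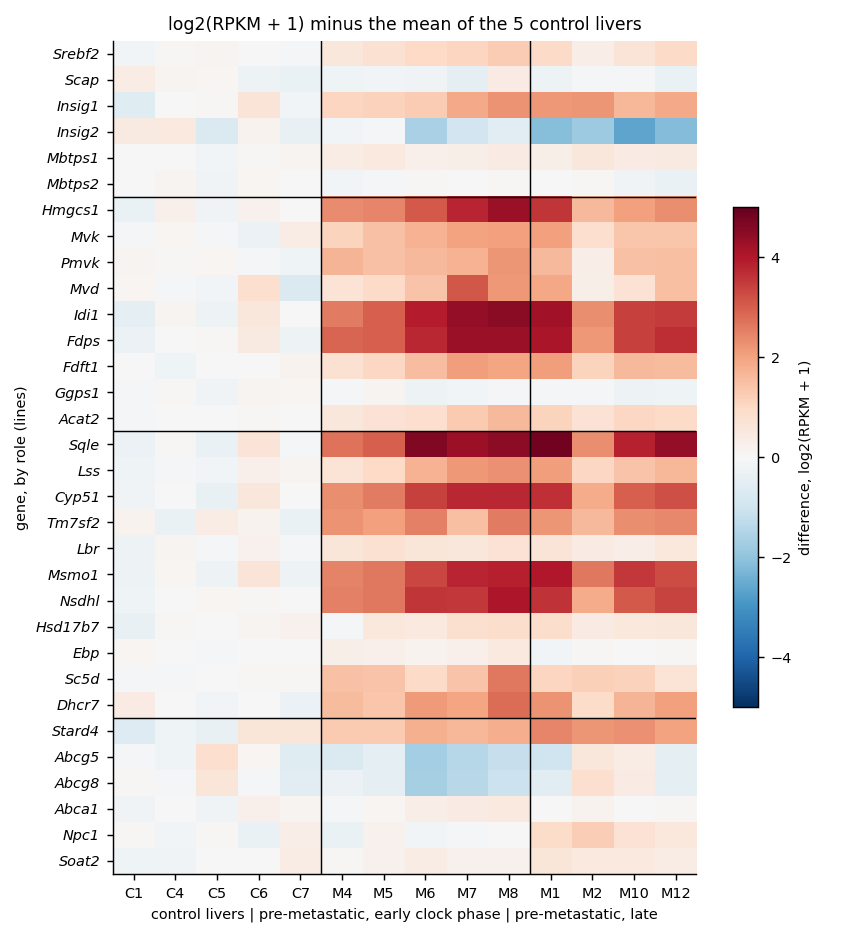
Log2(RPKM + 1) of each gene (rows, grouped by role) in each of the 14 livers (columns), as the difference from the mean of the 5 control livers, with red for higher and blue for lower. Hmgcs1, Idi1, Fdps, Sqle, Cyp51, Msmo1 and Nsdhl are red in all 9 pre-metastatic livers, palest in M2, M4 and M5 except for Hmgcs1, which is palest in M2, M10 and M12, and Insig2 is bluest in the late-phase livers M1, M2, M10 and M12.

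Other features of the livers moved along with these genes, and their part in the result was not tested. Of 7 leukocyte markers tested, 6 rose, and the summed RPKM of that list went from 27.3 to 49.1 in control to 55.4 to 297 in pre-metastatic liver. The neutrophil marker Ly6g was near 0 and overlapped, at 0 to 0.146 RPKM in control and 0.0476 to 0.820 RPKM in pre-metastatic liver. The median of the leukocyte marker Cd3e was 0.312 RPKM in control and 0.246 RPKM in pre-metastatic liver. Of 6 Kupffer cell markers 5 rose (summed RPKM 56.4 to 116 against 114 to 346). All 4 erythroid markers tested rose (179 to 401 against 474 to 1025). The background for these counts is the 17.7% of all genes that rose and the 13.3% that fell. Of 8 hepatocyte markers 1 rose and 3 fell (5 fell with total-count scaling), of 6 endothelial markers 1 rose, of 6 stellate and fibroblast markers 3 rose, and of 6 epithelial markers 3 rose. Krt20, which was high in the tumors, was at 0 to 0.0450 RPKM in control and 0.00925 to 1.31 RPKM in pre-metastatic liver. The source of this Krt20 RNA was not tested. Genes of feeding and fasting moved as well. Of 10 genes of the fed, lipogenic state 8 rose and 1 fell, beside 17.7% and 13.3% of all genes. Scd1, the stearoyl-CoA desaturase, went from 2.27 to 10.5 RPKM to 52.5 to 469 RPKM (log2 5.32 ± 0.74 SE), and Thrsp, a lipogenic factor, rose by a log2 of 4.56 ± 0.84 SE. Of 10 genes of fasting 2 rose and 2 fell (4 fell with total-count scaling), a share of rises near that of all genes. The rises were those of Igfbp1 (log2 2.37 ± 0.72 SE) and G6pc (1.78 ± 0.58 SE). Cyp4a14, a fatty acid hydroxylase induced by PPAR alpha, fell from 356 to 1110 RPKM to 0.296 to 15.2 RPKM (log2 -7.40 ± 0.83 SE). The count of fasting rises was 0 without C5 and 1 without C4, C6 or C7. The food intake of the mice is not given in the sources used here.

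The neighbouring genes of the pathway were counted in the same fit. Of 12 genes of sterol sensing and regulated degradation 2 fell and the other 10 did not pass the test. Those that fell were Nr1h3 (log2 -0.24 ± 0.08 SE) and Nr1h2 (-0.22 ± 0.07 SE), the oxysterol receptors LXR alpha and beta. Of 16 genes of cholesterol trafficking 4 rose and 1 fell. Tmem97, an SREBP-regulated membrane protein, rose from 20.1 to 30.7 RPKM to 44.5 to 86.9 RPKM (log2 1.47 ± 0.21 SE), and Soat1, the cholesterol esterification enzyme of most non-hepatocyte cells, rose from 0.479 to 1.29 RPKM to 0.876 to 2.25 RPKM (log2 0.90 ± 0.22 SE). Scarb1, the receptor that takes up cholesterol from high density lipoprotein, fell from 70.9 to 116 RPKM to 58.0 to 77.6 RPKM (log2 -0.54 ± 0.14 SE). Of 12 genes that use mevalonate products outside of sterols (dolichol, ubiquinone and prenylation) 4 fell and the other 8 did not pass the test, the largest fall being that of Nus1, a dolichol synthase subunit (log2 -0.39 ± 0.11 SE). The background for these counts is again the 17.7% and 13.3% of all genes. The falls in sensing were 0 without C1, C4 or C5 and 1 without C6, C7, M1, M6 or M8, and those in the mevalonate branches were 1 without C6.

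The primary tumors were compared with the pre-metastatic livers of the same 9 mice and with the control livers. These comparisons share the tumor libraries. With the comparison of livers, the former shares the pre-metastatic livers and the latter the control livers. Their values are therefore given side by side only. Scaling matters here: library totals in place of TMM raised the median log2 fold change of all genes by 1.18 against pre-metastatic liver and by 1.08 against control liver. RPKM is scaled by library totals, and fold changes are by TMM unless stated otherwise. Against pre-metastatic liver 4 of the 32 genes were higher, 27 lower and Srebf2 not past the threshold, where 43.8% of 19749 genes were higher and 39.5% lower. With total-count scaling 5 were higher and 25 lower, where 67.6% and 21.3% of all genes were. Against control liver 11 were higher and 16 lower, where 44.2% of 19320 genes were higher and 38.1% lower. With total-count scaling 17 were higher and 12 lower, where 66.6% and 21.4% of all genes were.

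**Figure D5:**
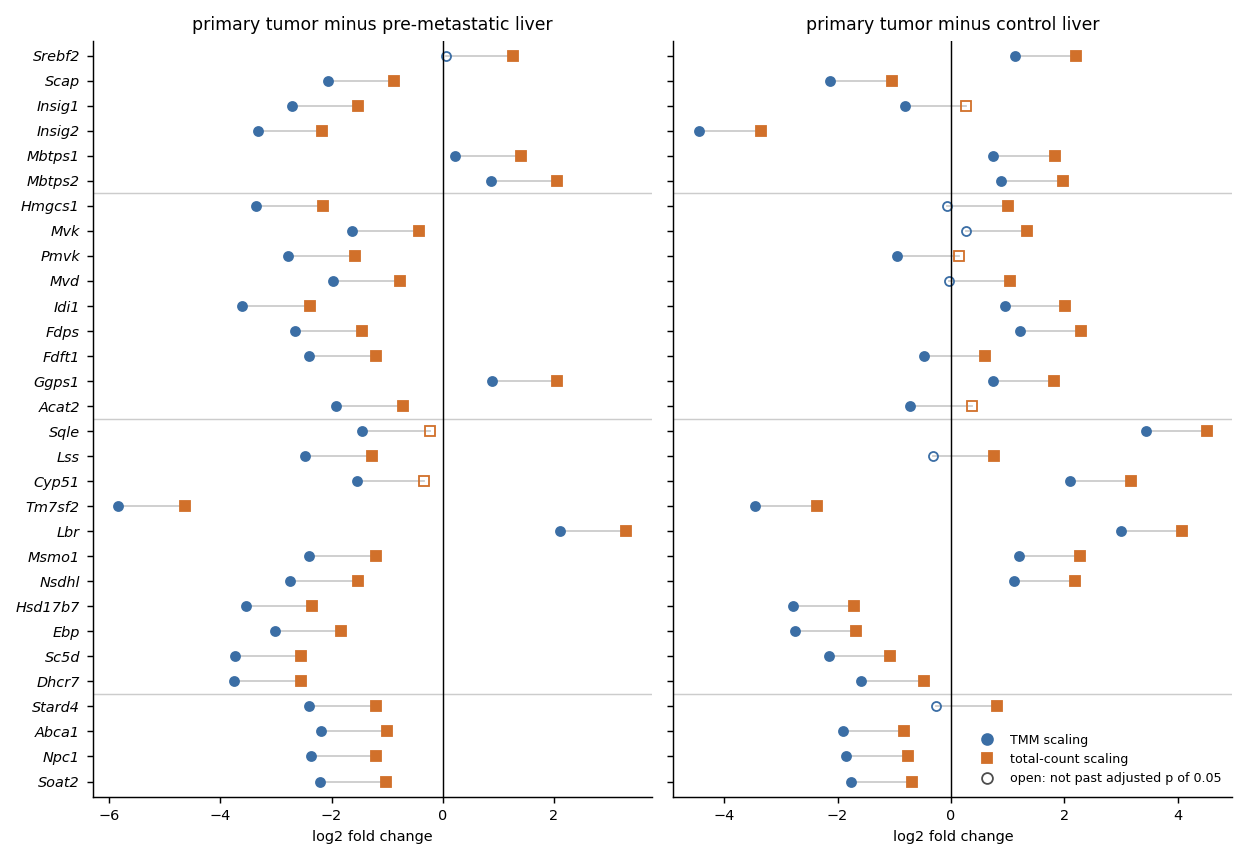
Log2 fold change of the primary tumor against pre-metastatic liver (left) and against control liver (right) for 30 of the 32 genes (Abcg5 and Abcg8 left out), by TMM (blue circles) and by total-count scaling (orange squares), open where the edgeR adjusted p was not under 0.05. Every orange square lies to the right of its blue circle, by close to the shift of all genes (1.18 and 1.08), so that genes such as Hmgcs1, Mvd and Lss lie on different sides of 0 on the right.

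The genes of the mevalonate and sterol steps were lower in the tumors than in the pre-metastatic livers under both scalings, except for Ggps1 and Lbr, which were higher, and Sqle and Cyp51, which were lower by TMM alone. A rank-sum test on RPKM, which is scaled by library totals, did not call Mvk, Mvd, Sqle or Cyp51. Sqle was at 18.2 to 61.3 RPKM in the tumors (median 30.5) and at 10.7 to 65.8 RPKM in the pre-metastatic livers. It was lower by TMM (log2 -1.45 ± 0.35 SE, edgeR adjusted p = 0.000712) and not past the threshold by total counts (-0.23, edgeR adjusted p = 0.503). Against control liver it was the largest rise, by a log2 of 3.45 ± 0.34 SE with TMM and 4.52 with total counts. Cyp51, at 15.2 to 62.3 RPKM (median 24.7) in the tumors, followed the same pattern, with a log2 of -1.55 ± 0.30 SE against pre-metastatic and 2.09 ± 0.31 SE against control liver. Fdps, at 34.6 to 93.9 RPKM (median 51.6), was higher than in control liver as well under both scalings (log2 1.22 ± 0.26 SE with TMM). So was Msmo1, at 21 to 81.2 RPKM (median 32.1; log2 1.21 ± 0.31 SE with TMM). Idi1 was at 2.50 to 13.8 RPKM (median 3.86) in the tumors, with a log2 of -3.60 ± 0.39 SE against pre-metastatic and 0.95 ± 0.39 SE against control liver. The latter was past the threshold (edgeR adjusted p = 0.0345) but was lost without C1, C4, C5, C7, M7 or M8, with edgeR adjusted p values of 0.0535 to 0.0977. Hmgcs1, at 16.4 to 51.7 RPKM (median 23.5), was lower than in pre-metastatic liver (log2 -3.36 ± 0.37 SE). Against control liver Hmgcs1 was at log2 -0.07 ± 0.24 SE with TMM and at 1.01 with total counts, a flip of direction.

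Other genes were low in tumors under both scalings. Tm7sf2 was at 1.53 to 4.28 RPKM (median 1.87) in the tumors, with a log2 of -5.84 ± 0.24 SE against pre-metastatic liver and -3.46 ± 0.23 SE against control liver. Sc5d, at 6.15 to 13.0 RPKM (median 9.26), was lower than in pre-metastatic liver by a log2 of -3.73 ± 0.23 SE, and Dhcr7, at 3.99 to 7.57 RPKM (median 5.6), by -3.75 ± 0.24 SE. Hsd17b7 was at 1.11 to 4.84 RPKM (median 1.78) and lower than in control liver (log2 -2.79 ± 0.28 SE). Abcg5 and Abcg8, whose protein serves bile secretion, were counted 0 to 8 and 0 to 14 times in the tumor libraries against median counts of 5198 and 5871 in control liver. With counts this close to 0 no fold is given, and both were called lower in each tumor comparison. By RPKM Abcg5 was highest in the tumor of M12 and Abcg8 in that of M10, the tumors with the most hepatocyte marker RNA. The part of hepatocyte RNA in these values was not tested. Insig2, at 11.0 to 19.7 RPKM (median 13.7), was lower than in control liver (log2 -4.45 ± 0.21 SE) and than in pre-metastatic liver (-3.33 ± 0.31 SE). Scap, at 14.2 to 16.8 RPKM (median 16.1), was lower than in pre-metastatic liver (log2 -2.06 ± 0.10 SE) and than in control liver (-2.13 ± 0.12 SE). Soat2, at 7.56 to 14.6 RPKM (median 9.38), and Abca1, at 5.17 to 16.9 RPKM (median 14), were also lower than in both groups of livers, by a log2 of -2.21 and -2.19 against pre-metastatic liver.

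The genes that stood higher in tumors than in pre-metastatic livers under both scalings were Lbr, Ggps1, Mbtps2 and Mbtps1. Lbr was at 25.9 to 43.9 RPKM (median 35.3) in the tumors against 2.72 to 4.13 RPKM (log2 2.12 ± 0.11 SE, edgeR adjusted p = 3.41e-13), and it was higher than in control liver by a log2 of 3.01 ± 0.15 SE. Ggps1 was at 2.88 to 4.64 RPKM (median 3.32) against 0.679 to 1.16 RPKM (log2 0.88 ± 0.09 SE). Mbtps2 was at 6.25 to 8.96 RPKM (median 7.96; log2 0.88 ± 0.10 SE), although it shares 2867 bases with Yy2 on the same strand, and Mbtps1 at 34.8 to 42.3 RPKM (median 36.3; log2 0.23 ± 0.06 SE). Srebf2 was at 21.8 to 40.8 RPKM (median 34.1) in the tumors, above every liver in RPKM. Its log2 fold change against pre-metastatic liver was 0.07 ± 0.15 SE with TMM (edgeR adjusted p = 0.694) and 1.26 with total counts. Against control liver it was higher under both scalings (log2 1.13 ± 0.14 SE with TMM). Insig1, at 15.2 to 42.5 RPKM (median 21.0), was lower than in pre-metastatic liver (log2 -2.72 ± 0.23 SE). Against control liver Insig1 was at -0.81 ± 0.23 SE with TMM and at 0.27 with total counts, another flip.

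Lbr and Tm7sf2 encode enzymes of the same step, and their ratio within a library is free of the scaling. This pair was chosen after its values were seen. Lbr RPKM divided by Tm7sf2 RPKM was 0.123 to 0.268 in the control livers, 0.0461 to 0.103 in the pre-metastatic livers and 8.77 to 23.3 in the tumors. The groups did not overlap: the tumors counted mostly Lbr, the livers mostly Tm7sf2, and the pre-metastatic livers the more so.

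Counts of neighbouring genes in the tumors are given with both scalings, and the log2 values of single genes by TMM alone. Against pre-metastatic liver, 2 of 12 sensing genes were higher and 8 lower with TMM (6 and 6 with total counts), 4 of 16 trafficking genes higher and 9 lower (9 and 6), and 3 of 12 genes of the mevalonate branches higher and 5 lower (9 and 1). Of all genes 43.8% were higher and 39.5% lower with TMM (67.6% and 21.3% with total counts). Soat1 was at 24.8 to 32 RPKM in the tumors against 0.876 to 2.25 RPKM in pre-metastatic liver (log2 2.94 ± 0.13 SE), opposite to Soat2. Lcat, the plasma enzyme that esterifies cholesterol, was lower by a log2 of -9.05 ± 0.23 SE. Nr1h4, the bile acid receptor, was at 0 to 0.146 RPKM in the tumors against 29.3 to 44.7 RPKM. Pdss1, which makes the ubiquinone side chain, was higher (log2 1.70 ± 0.12 SE). Against control liver the counts were 1 higher and 8 lower (5 and 6) for sensing, 5 and 9 (9 and 6) for trafficking, and 2 and 6 (10 and 1) for the branches. The background there was 44.2% higher and 38.1% lower (66.6% and 21.4%). The tumors held leukocyte markers at a summed 1072 to 2766 RPKM and stellate and fibroblast markers at 631 to 1035 RPKM, and the part of these cells in the values was not tested.

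Across the 9 mice, the log2(RPKM + 1) of each of the other 31 genes was related to that of Sqle, taken as anchor, within each tissue (exact two-sided permutation over all pairings, adjusted over 31 relations). Only these 31 genes were related to Sqle, and the share of all genes that would be called was not counted. In the pre-metastatic livers 2 genes were called by Spearman's rho and 10 by Pearson's r. Nsdhl followed Sqle with rho = 0.933 (exact p = 0.000750, adjusted 0.0116) and r = 0.948 (exact p = 0.000273, adjusted 0.00465), and r = 0.871 (exact p = 0.0103) without M2 and M4, the mice farthest from the median of Sqle. Dhcr7 did so with rho = 0.933 (exact p = 0.000750, adjusted 0.0116) and r = 0.874 (exact p = 0.000750, adjusted 0.00465), and r = 0.784 (exact p = 0.0444) without those mice. On ranks centered within the clock phases both stayed past the threshold (adjusted exact p = 0.0359 for each), and Abcg8 joined them with a negative rho of -0.922 (adjusted exact p = 0.0359). Srebf2 itself had rho = 0.733 (exact p = 0.0311, adjusted 0.0877) and r = 0.860 (exact p = 0.00243, adjusted 0.0125), and r = 0.618 (exact p = 0.155) without those 2 mice, which was not past 0.05 on the 7 left.

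In the tumors 9 genes were called by rho, all positive: Srebf2, Idi1, Fdft1, Cyp51, Lbr, Msmo1, Nsdhl, Sc5d and Stard4. Msmo1 had rho = 0.900 (exact p = 0.00203, adjusted 0.0280) and r = 0.902 (exact p = 0.000835, adjusted 0.00586), and r = 0.712 (exact p = 0.0677) without M2 and M7, which was not past 0.05 on the 7 mice left. Srebf2 had rho = 0.867 (exact p = 0.00451, adjusted 0.0280) and r = 0.848 (exact p = 0.00418, adjusted 0.0186), and r = 0.937 (exact p = 0.00278) without M2 and M7. The tumors themselves were given no clock phase. On ranks centered within the clock phases of the matched livers, 0 of the 31 genes were called by Spearman's rho, with 12 at an unadjusted exact p under 0.05. Over the 32 genes the tumor of M7 was the highest for 17 and that of M2 the lowest for 14. All points of a tissue share their libraries, so that depth and the other genes of a library act on both values. Without the share of all genes, these counts are not shown to be particular to the 32 genes.

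Overlapping genes limit some values, since the sources used here do not state that counting used strand. In all, 12 of the 32 genes overlap another gene of the table, 6 of them a protein-coding one. Tm7sf2 shares 9 bases with Vps51. Npc1 shares 8982 bases with 3110002H16Rik, which had a median count of 637 in pre-metastatic liver and 1766 in the tumor, against 6947 and 3108 for Npc1. Lss shares 11269 bases with 4930483K19Rik, whose median count was at most 57 in a group, and Insig1 shares 7251 bases with Gm35223, whose median count was at most 1. Scap overlaps an opposite-strand transcript with a median count of 1123 in control and 960 in pre-metastatic liver, against 9336 and 7469 for Scap.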

How the data were processed

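The authors extracted RNA with Trizol and DNase I, made poly(A) libraries with the NEBNext Ultra kit, aligned reads to mm10 with HISAT2 and counted them per gene with HTSeq 0.6.0, per the labels' protocols and the submitters' processing notes. The annotation release and the strand setting are not given in the sources used here. They deposited raw counts and RPKM for each gene and library, and the deposited RPKM equals the count scaled by gene length and by the library's total count to within a relative 1.75e-06. All 46 value columns were matched to samples by title.

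From the deposited counts, genes that reached 10 counts in 5 or more of the compared libraries were fitted in edgeR 4.0.16 (R 4.3.3; TMM factors, quasi-likelihood test, Benjamini-Hochberg adjustment, threshold 0.05), with only the groups compared in each fit. RPKM was used for levels, ranges and correlations, the latter on log2(RPKM + 1). Alternatives were DESeq2 1.42.0, upper-quartile factors, library totals, no filter on low counts, a rank-sum test on RPKM, leaving out each mouse, the clock phase as a term or the early phase alone, and the mouse as a block. The scripts were tested on simulated counts. Clock phase was set in the livers from Dbp, Per3 and Ciart minus Arntl, Npas2 and Clock, split at the largest gap. Each tumor was placed by the phase of the liver of its mouse. Promoters came from RefSeq.

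Within a group each library is a separate animal's tissue, and no libraries of a group agreed within sampling noise. Tumors and pre-metastatic livers came from the same mice. Over 12748 genes the deviations of same-mouse libraries from the tissue means correlated with a mean r of 0.0849 (range -0.0437 to 0.266). The mean between other mice was -0.0108. Centering each gene within a tissue largely fixes this value from the same-mouse mean, so that it is no separate reference. Libraries held 44587556 to 79773163 counts, at which Abcg5 and Abcg8 had 0 to 14 counts in a tumor. Every one of the 32 genes is accounted for, with the value in each control liver and the lowest, median and highest of the larger groups for those that changed between livers and for Srebf2, Scap, Insig1, Insig2, Sqle, Idi1, Hmgcs1, Soat2 and Abca1, with the lowest, median and highest for the 5 largest rises and falls past the threshold in each tumor comparison, and with at most 2 rises and 2 falls named of each list of other genes. Some genes of the feeding and fasting lists are not reported here. The genes, lists and markers were chosen with earlier results of these data known.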

Additional observations from a re-analysis of the deposited data

Results flagged for a closer look

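In 11 of 96 groups of libraries the highest or lowest RPKM stood far from the others by Dixon's criterion, which chance alone meets in about 1 of 20 groups. Of these, 5 were the tumor of M7, the highest tumor for Insig1 (42.5, next 28.1), Idi1 (13.8, next 7.25), Fdft1 (9.55, next 7.08), Sqle (61.3, next 38.3) and Cyp51 (62.3, next 36.4). The pre-metastatic liver of M8 stood out for Scap (42.8, next 30.2) and for Sc5d (123, next 54.1), and that of M7 for Mvd (39.6, next 19.9). The tumor of M4 stood out for Tm7sf2 (4.28, next 2.46) and that of M10 for Abcg8 (0.0524, next 0.0244), the latter on 14 counts. Among the control livers, that of C1 was low for Nsdhl (1.93, next 2.43).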

How the results depend on the processing

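Total-count scaling, the Idi1 anchor and the alternatives for overlap and for the neighbouring lists were chosen after seeing the data. For the livers, the 23 rises were 23 without any 1 mouse and 22 by the rank-sum test (Soat2 lost), while the single fall, Insig2, became 0 by the rank-sum test and 0 to 1 without 1 mouse each (lost without C1, C4, C6, M1, M2, M6 or M12), and 2 falls (Abcg5 and Abcg8) in the early phase alone. With the clock phase as a term Insig2 was at log2 -1.01 (edgeR adjusted p = 0.00669). The non-overlapping rises were 20 to 21 without 1 mouse each. The non-overlapping falls were 0, or 2 in the early phase alone, which leaves out C7 and for which no share of all genes was counted. Against pre-metastatic liver the tumor had 4 higher and 27 lower genes without any 1 mouse, and 5 and 23 by the rank-sum test, which lost Mvk, Mvd, Sqle and Cyp51. With the mouse as a replicate block, the paired fit gave 4 higher and 27 lower genes and the same call for 32 of 32 genes, so that it changed no call. Against control liver 10 to 12 genes were higher and 15 to 17 lower without 1 mouse each, and 17 were higher by total counts.

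Direction changed for some genes. Between livers, Mbtps2 was at 0.0238 with the clock phase as a term, 0.044 in the early phase, 0.0181 with upper-quartile factors and -0.0756 to 0.0409 without 1 mouse each. Scap was at -0.1705 to 0.0514 without 1 mouse each, the positive value without C1. In the tumor comparisons the early phase is that of the livers, which for a tumor is the liver of its mouse. Srebf2 in tumor against pre-metastatic liver was at -0.0022 in the early phase. In tumor against control liver, total counts and the rank-sum test on RPKM turned Hmgcs1 (1.0122 and 0.9616), Mvd (1.0466 and 0.8893), Stard4 (0.8104 and 0.7012), Insig1 (0.2678 and 0.2555), Fdft1 (0.6045 and 0.5059), Lss (0.7615 and 0.5712) and Acat2 (0.3646 and 0.3376), and total counts turned Pmvk (0.1341). Hmgcs1 was at 0.1092 in the early phase, 0.0451 with no filter, 0.1111 with upper-quartile factors, and -0.2309 to 0.0131 without 1 mouse each. Stard4 was at 0.0584 in the early phase. Mvd was at 0.0678 with no filter, 0.1388 with upper-quartile factors, and -0.2463 to 0.2754 without 1 mouse each, the highest without C6. The cause was not tested, other than that total counts shift all genes.

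Relations to Sqle called in pre-metastatic liver were 10 with unlogged RPKM and 15 with Idi1 as anchor. In the tumor they were 0 within the clock phases of the matched livers, 16 unlogged and 18 with Idi1. No share of all genes was counted for these relations. Among neighbouring lists between livers, falls in sterol sensing were 1 with the phase term, 0 in the early phase, 0 with no filter and 0 to 3 without 1 mouse each. Falls in the mevalonate branches were 1 in the early phase, 2 with no filter and 1 to 4 without 1 mouse each, and rises 0 to 1. Falls in the lipogenic list were 0 in the early phase and by rank sums. Fasting falls were 4 with DESeq2 and 4 with total counts, and fasting rises 0 by rank sums and 0 to 3 without 1 mouse each. Depth limits Abcg5 and Abcg8 in the tumors, at 0 to 14 counts.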
